A study of Sus scrofa with 8 samples.

Results

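The genes described here are 4 members of the MHC class II pathway, CIITA, CD74, CTSS and RFX5, of 35683 genes listed for the pig retina. They were chosen by name, and their raw unique molecular identifier (UMI) counts were summed per retina and cell class in all 8 retinas. MHC class II molecules present peptides from the endosomal route to CD4 T cells and are made mainly by dendritic cells, B cells and activated macrophages. CIITA is the transactivator that switches class II genes on, and interferon gamma can induce it, in part through IRF1. RFX5 is the DNA-binding subunit of the RFX complex, which sits on class II promoters and recruits CIITA. CD74, the invariant chain, guards the peptide groove until it reaches the endosome, and CTSS (cathepsin S) is the protease that makes the late cuts in CD74 there. In the healthy retina class II is scarce, and microglia are its usual carriers when the tissue is inflamed.

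The retinas came from female Yucatan minipigs aged 3 to 5 months that received an intravitreal AAV2.7m8 vector carrying GFP under the ubiquitous CAG promoter, at 5e11 vector genomes per eye, or vehicle. All animals, vehicle animals included, were pretreated with Vitrase, a hyaluronidase, 2 weeks earlier and received methylprednisolone weekly. At week 2 each arm held both eyes of 1 animal (replicate 1 left, replicate 2 right), and at week 4 the left eyes of 2 animals (replicates 1 and 2), and values of a group are given below in that order. Single nuclei were sequenced, and each group carries a batch label of its own, so batch and group cannot be told apart.

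Total UMIs per retina ranged from 121544835 to 173614051, and 350537 nuclei were kept. A nucleus was given a class from fixed marker genes, which left 13.4% without one. In the myeloid class, which holds microglia and macrophages, all 14 markers were highest in their own class. In the astrocyte class 2 of 4 were, and 82.3% of its nuclei lay near the limit of the gate. In the Müller class, the radial glia of the retina, 3 of 7 were highest in their own class, and the summed Müller markers stood at 2282 to 2381 UMIs per 1000000 UMIs (CPM) in AAV retinas at week 4 against 3775 to 3799 CPM in vehicle retinas. Myeloid nuclei numbered 121 and 86 in AAV retinas and 91 and 80 in vehicle retinas at week 2, and 1620 and 1026 against 67 and 67 at week 4. Müller nuclei numbered 1706 and 668 in AAV and 5003 and 5440 in vehicle retinas at week 4, with median depths of 5216 and 5428.5 against 2157 and 1955 UMIs. B nuclei numbered 280 and 185 in AAV retinas at week 4 and at most 6 elsewhere, so B nuclei could not be compared between arms. Doublets were not removed, and free RNA reaches every droplet, which is why levels in rods are set beside the glial ones.

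The genes lie on 3 chromosomes of Sscrofa11.1. CIITA (ENSSSCG00000007901) spans chr3:32171706-32230775 on the minus strand, CD74 (ENSSSCG00000033262) chr2:151402210-151409924 on the minus strand, CTSS (ENSSSCG00000006648) chr4:98415273-98442952 on the plus strand and RFX5 (ENSSSCG00000006625) chr4:97901955-97913283 on the plus strand. In RefSeq CIITA has 8 transcript starts, of which 4, at least 500 bases apart, were searched, and letters of an interferon response motif were found upstream of 1 of these 4, at position 32218831, in sequence that is exonic for transcripts starting further upstream. They are shown because IRF1 acts through such letters: the capitals mark overlapping IRF motifs (GAAA, 2 bases of any kind, GAAA), at chr3:32218916-32218945, minus strand.
CIITA, IRF motifs: gcagagaGAAAGTGAAAGAGAAAaagggcg
Among 19556 windows of 250 bases, 1 per gene before its most upstream start and searched on both strands, 3.01% held the IRF motif. The letters are hence met elsewhere too. CIITA was given 4 windows rather than 1, and that before its most upstream start held no IRF motif. A share for genes with 4 windows was not taken.

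The 250 bases upstream of CD74 (chr2:151409925-151410174, minus strand) are shown for comparison. The capitals mark the Y box (ATTGG, here on the opposite strand), the NF-Y letters of class II promoters, 47 bases before the start.
CD74: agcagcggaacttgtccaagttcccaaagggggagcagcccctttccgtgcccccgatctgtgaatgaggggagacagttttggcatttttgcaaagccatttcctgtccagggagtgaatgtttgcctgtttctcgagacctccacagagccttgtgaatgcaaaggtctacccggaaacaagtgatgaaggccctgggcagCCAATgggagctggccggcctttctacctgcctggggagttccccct
The Y box letters were in 31.9% of the windows. The letters searched for the X1 half-site (GCAAC, 30.1% of windows), the X2 core (TGACG, 19.6%) and PU.1 (GAGGAAG, 10%) were not in the CD74 window. Of the 2 RFX5 windows searched, that before the most upstream start held no match to any of these motifs. Within 500 bases of the start at position 97902470, 2 transcripts begin. The window before that position held Y box letters 184 and 102 bases and X1 half-site letters 109 and 27 bases before it.

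CIITA was the member with the largest week 4 fold difference in myeloid nuclei. Its level was 280 and 240 CPM in AAV retinas and 38.5 and 41.1 CPM in vehicle retinas at week 2, and 624 and 456 CPM against 88.0 and 16.5 CPM at week 4. Both AAV retinas stood above both vehicle retinas at each week. The vehicle levels rest on few UMIs, 9 and 2 at week 4, while the AAV levels rest on 2934 and 1694. At week 4 CIITA rose by a log2 fold change of 3.59 (SE 0.43, adjusted p = 0.00090 in edgeR's quasi-likelihood test, n = 2 animals per arm). It kept this call without each animal in turn, at 5.22 without vehicle replicate 1 and 2.82 without vehicle replicate 2. Of 12161 genes tested in myeloid nuclei, 4.32% were called higher in AAV retinas, and 3 of the 4 members were. At week 2, with 1 animal per arm and hence no test, the ratio of the summed eyes was 6.60 (95% exact counting interval 3.82 to 12.3), and 23.8% of genes had both AAV retinas above both vehicle retinas there. The change in the effect from week 2 to week 4 was 0.83 on the log2 scale (adjusted p = 0.75, edgeR, beside 0.763% of genes called), which does not show that the weeks were alike.

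CD74, the chaperone, had a smaller fold difference. It stood at 211 and 247 CPM in AAV against 138 and 99.8 CPM in vehicle myeloid nuclei at week 2, and at 427 and 405 CPM against 97.8 and 65.9 CPM at week 4. The groups did not overlap at either week, and 30.9% of genes had such an order at week 4. CD74 rose at week 4 by 2.51 on the log2 scale (SE 0.27, adjusted p = 0.00047, edgeR). The week 2 ratio was 1.91 (counting interval 1.34 to 2.76), and the difference between the weeks did not pass the test (1.53 on the log2 scale, adjusted p = 0.16).

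CTSS, the protease, stood at 146 and 143 CPM in AAV against 88.0 and 76.3 CPM in vehicle myeloid nuclei at week 2. At week 4 it was at 421 and 504 CPM against 97.8 and 157 CPM, again without overlap. CTSS rose at week 4 by 1.98 on the log2 scale (SE 0.27, adjusted p = 0.0019, edgeR), and its week 2 ratio was 1.76 (1.15 to 2.77).

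RFX5 rested on few UMIs in vehicle myeloid nuclei, and its groups overlapped. It stood at 22.9 and 14.3 CPM against 27.5 and 5.87 CPM at week 2, and at 28.1 and 22.3 CPM against 39.1 and 0 CPM at week 4. The week 4 vehicle values come from 4 UMIs in replicate 1 and none in replicate 2. The fitted difference was 0.63 (SE 0.87, adjusted p = 0.75, edgeR), so a change in RFX5 was not detectable at this depth.

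**Figure D1:**
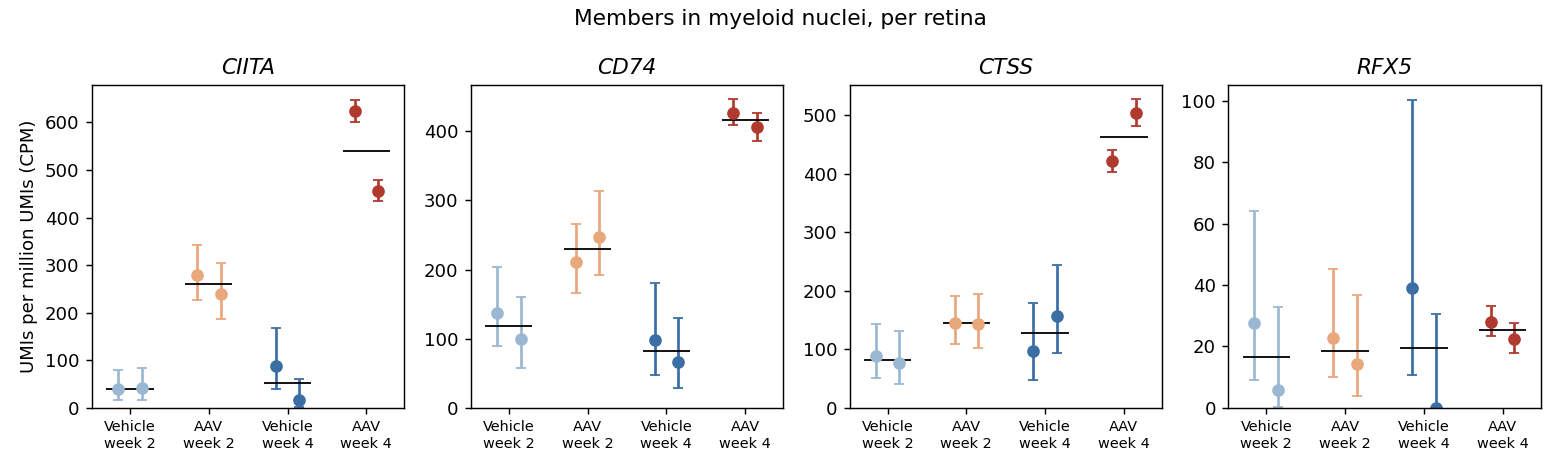
Level of each member in myeloid nuclei, in CPM on a linear axis from 0; each point is 1 retina with its 95% exact Poisson interval, and the black line is the mean of the 2 retinas of a group. CIITA, CD74 and CTSS reach 405 to 624 CPM in AAV retinas at week 4 and do not overlap vehicle retinas, whereas RFX5 does.

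The share of myeloid nuclei with at least 1 CIITA UMI followed the same order. It was 45.5% and 40.7% in AAV against 7.69% and 8.75% in vehicle retinas at week 2, and 69.1% and 66.9% against 10.4% and 2.99% at week 4. Myeloid nuclei were deeper in AAV retinas at week 4 (median 2513 and 3417 UMIs against 1356 and 1627), so each nucleus was also thinned to 1000 UMIs. The thinned shares were 22.9% and 22.1% against 6.17% and 6.94% at week 2 and 43.5% and 35.0% against 8.0% and 1.89% at week 4, leaving out 3 and 0, 10 and 8, 125 and 22, and 17 and 14 shallower nuclei. In rods, which should lack CIITA, the unthinned share at week 4 was 0.610% and 0.294% in AAV and 0.077% and 0.174% in vehicle retinas, at median depths of 1504 to 2181 UMIs. An exact permutation test of 2 against 2 animals cannot give a p below 0.333, so no p is attached to these shares.

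P2RY12 is the receptor that marks resting microglia. Week 4 myeloid nuclei without a P2RY12 UMI numbered 802 of 1620 and 339 of 1026 (AAV) and 5 and 8 of 67 (vehicle). A different mix of cells and lower P2RY12 in the same cells cannot be told apart from these counts. Within the AAV nuclei, CIITA was at like levels with and without P2RY12. Those with a P2RY12 UMI held CIITA at 620 and 461 CPM and those without one at 628 and 443 CPM. CD74 was at 425 and 392 CPM with P2RY12 and at 429 and 438 CPM without. In nuclei with a CIITA UMI, CD74 was at 445 and 433 CPM, and in those without one at 373 and 340 CPM, with median depths of 2780 and 3633 against 1947 and 2982.5 UMIs. CTSS differed less between these nuclei, at 427 and 509 CPM with CIITA against 404 and 494 CPM without.

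B cells express CIITA constitutively, so their markers were checked in the myeloid gate. The B list moved with the members there at week 4, nearly all through BANK1, a scaffold protein of B cells, at 1647 and 1771 CPM in AAV and 48.9 and 33.0 CPM in vehicle myeloid nuclei. The other 8 B markers summed to 38.0 and 28.8 CPM against 39.1 and 24.7 CPM. MS4A1, CD79A and CD79B, which define B cells, summed to 1.49 and 0.808 CPM in AAV myeloid nuclei at week 4 against 333 and 341 CPM in B nuclei, and to 0 in vehicle myeloid nuclei. BANK1 stood at 1468 and 1856 CPM in B nuclei of AAV retinas at week 4.

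In the B nuclei of AAV retinas at week 4, CIITA stood at 375 and 332 CPM and CD74 at 389 and 306 CPM. These levels were below those of myeloid nuclei of the same retinas for both genes. For CD74 in replicate 1 the counting intervals overlapped, at 336 to 448 CPM in B and 409 to 446 CPM in myeloid nuclei. CTSS was lower in B nuclei, at 104 and 129 CPM, and RFX5 stood at 39.9 and 35.3 CPM. A CIITA UMI was found in 41.1% and 42.7% of B nuclei. T or NK nuclei of these retinas held CIITA at 49.7 and 40.3 CPM, CD74 at 82.2 and 94.4 CPM and CTSS at 159 and 122 CPM. Plasma nuclei, whose factor PRDM1 is known to silence CIITA, held CIITA at 24.5 and 45.4 CPM and CD74 at 69.8 and 74.5 CPM. The order of CIITA among the leukocyte classes of AAV retinas at week 4 was thus myeloid, B, dendritic (96.4 and 74.1 CPM, from 68 and 50 nuclei), T or NK and plasma, and T or NK overlapped plasma. Of the dendritic nuclei of all retinas 76.1% lay near the limit of the gate, as did 46.9% of plasma and 39.0% of B nuclei. PTPRC, a gene of all leukocytes, was at 30.4 and 67.9 CPM in dendritic nuclei of AAV retinas at week 4. Myeloid nuclei of these retinas held it at 278 and 278 CPM. No dendritic nucleus of any other retina held a PTPRC UMI, so the class is not shown to be made up of dendritic cells.

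Classes of infiltrating and resident leukocytes held most CIITA UMIs of the AAV retinas at week 4 but not of the other retinas. They held 81.0% and 83.3% of CIITA UMIs there, while making up 7.41% and 5.80% of nuclei. At week 2 they held 44.3% and 26.6% in AAV and 6.54% and 7.14% in vehicle retinas, and 11.11% and 2.44% in vehicle retinas at week 4. For CD74 the week 4 AAV share was 45.3% and 43.4%, for CTSS 46.1% and 40.6%, and for RFX5 14.0% and 11.9%. In no vehicle retina did leukocyte classes hold more than 9.22% of CD74, 0.794% of CTSS or 0.478% of RFX5 UMIs.

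**Figure D2:**
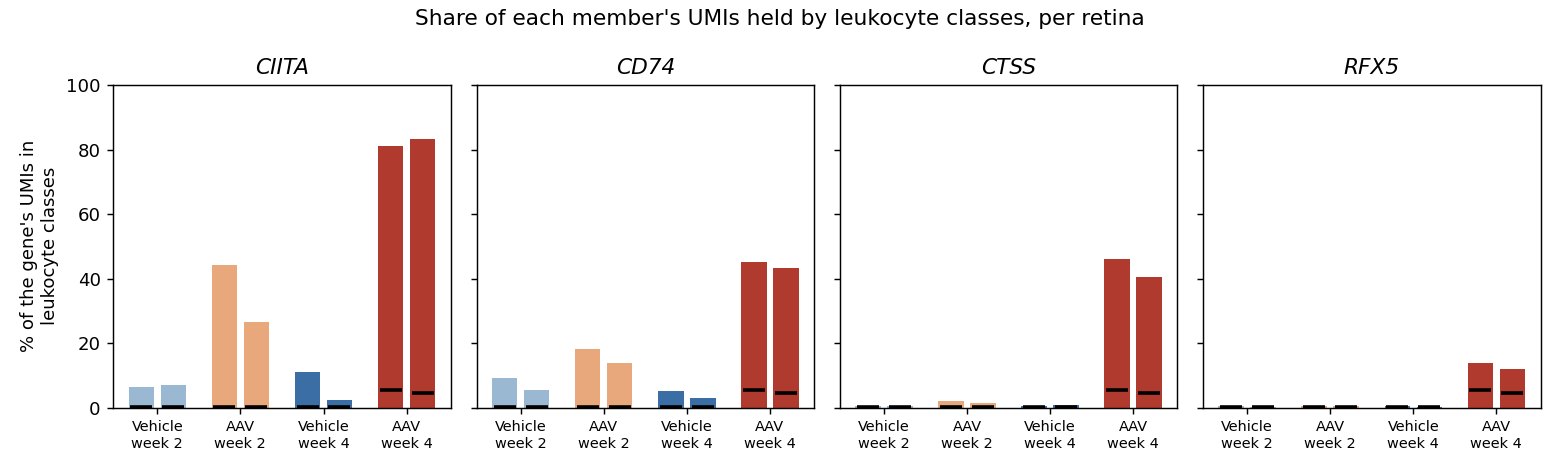
Percent of each member's UMIs that lay in the myeloid, dendritic, T or NK, B and plasma classes, 1 bar per retina, with a black dash for the percent of all UMIs in those classes. In AAV retinas at week 4 the bars reach 81.0% and 83.3% for CIITA and 14.0% and 11.9% for RFX5, against dashes at 5.41% and 4.60%.

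Over all nuclei together, where more leukocytes and more RNA per nucleus cannot be told apart, CIITA stood at 26.5 and 15.2 CPM in AAV against 0.68 and 0.73 CPM in vehicle retinas at week 4 and rose by 4.88 on the log2 scale (SE 0.31, adjusted p = 0.00069, edgeR). Its effect was larger at week 4 than at week 2 by 3.59 (adjusted p = 0.045, edgeR), where 0.697% of genes differed between weeks, and lost its call with the left eyes alone at week 2 (3.61, adjusted p = 0.059). CD74 rose by 4.02 (SE 0.22) and CTSS by 0.69 (SE 0.11, adjusted p = 0.016), where 6.71% of genes were called higher. The CTSS call was lost without vehicle replicate 1 (0.66, adjusted p = 0.10) and without vehicle replicate 2 (0.74, adjusted p = 0.095). In the fit of 3 AAV against 3 vehicle animals over both weeks, with week as a term, none of these calls was kept (CIITA 3.74, adjusted p = 0.15; CD74 2.99, adjusted p = 0.18; CTSS 0.45, adjusted p = 0.33). RFX5 was at 10.4 and 8.70 CPM against 8.15 and 8.42 CPM (0.20, adjusted p = 0.39). At week 2 the summed ratios were 2.56 (2.17 to 3.03) for CIITA, 1.76 (1.59 to 1.95) for CD74, 1.03 (0.996 to 1.07) for CTSS and 1.50 (1.42 to 1.58) for RFX5.

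In Müller nuclei CIITA was low. It was at 1.10 and 1.64 CPM in AAV against 0.51 and 0.48 CPM in vehicle retinas at week 2, from 46 against 16 UMIs, a ratio of 2.86 (1.59 to 5.41). The rods of those retinas held 0.63 and 0.52 CPM against 0.60 and 0.52 CPM. The week 2 ratio was 2.20 (1.18 to 4.31) in cones, 1.52 (0.83 to 2.86) in amacrine cells and 0.84 (0.53 to 1.32) in bipolar cells. In nuclei without a class it was 2.64 (1.71 to 4.20). Endothelial nuclei at week 2 held CIITA at a mean of 70.6 CPM in AAV and 55.5 CPM in vehicle retinas. These means come from 30 and 13 UMIs, the arms overlapped, and 40.5% of endothelial nuclei lay near the limit of the gate. Of the genes tested in Müller nuclei, 37.4% had both AAV retinas higher at week 2. At week 4 CIITA in Müller nuclei was at 3.39 and 0 CPM against 0.49 and 0.74 CPM, from 31, 0, 6 and 9 UMIs. The arms thus overlapped, and the gene did not pass the filter on low counts. Without AAV replicate 2, the retina with 0 UMIs, it passed both the filter and the test (2.45, SE 0.52, adjusted p = 0.030, edgeR). It passed the filter but not the test without vehicle replicate 1 (1.51, adjusted p = 0.27), without vehicle replicate 2 (2.10, adjusted p = 0.24), in the fit of 4 groups (1.76, adjusted p = 0.22) and in that of 3 against 3 animals (1.60, adjusted p = 0.27), and it was not called with no filter (1.73, adjusted p = 0.27). The rods held 3.54 and 1.48 CPM against 0.43 and 0.94 CPM. A CIITA UMI was found in 1.52% of Müller nuclei of AAV_week4 replicate 1 and in 0 of 668 of replicate 2, which allows a share of up to 0.449% with a UMI. Thinned to 1000 UMIs, the share in replicate 1 was 0.411% in Müller nuclei and 0.303% in rods. Astrocytes held 9 and 1 CIITA UMIs in AAV and 2 and 0 in vehicle retinas at week 4, too few to test.

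IRF1, an interferon-induced transcription factor that acts on CIITA, rose in the same glia and in rods. In Müller nuclei it was at 20.1 and 51.4 CPM in AAV against 1.83 and 0.962 CPM in vehicle retinas at week 2, and at 33.0 and 25.2 CPM against 1.39 and 2.70 CPM at week 4. The arms did not overlap at either week, an order that 37.4% of genes had at week 2 and 31.6% at week 4. IRF1 rose at week 4 by 3.84 on the log2 scale (SE 0.30). NLRC5, the class I counterpart of CIITA, rose there by 6.32 (SE 0.16). In astrocytes IRF1 rose by 3.70 (SE 0.37) and NLRC5 by 5.28 (SE 0.29), and in myeloid nuclei NLRC5 rose by 4.02 (SE 0.43). The adjusted p of these was at most 0.000805 in edgeR. IRF1 did not pass the test in myeloid nuclei (1.64, SE 0.46, adjusted p = 0.067). In rods both IRF1 and NLRC5 were called higher at week 4, NLRC5 by 4.52, beside 5.87% of genes.

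**Figure D3:**
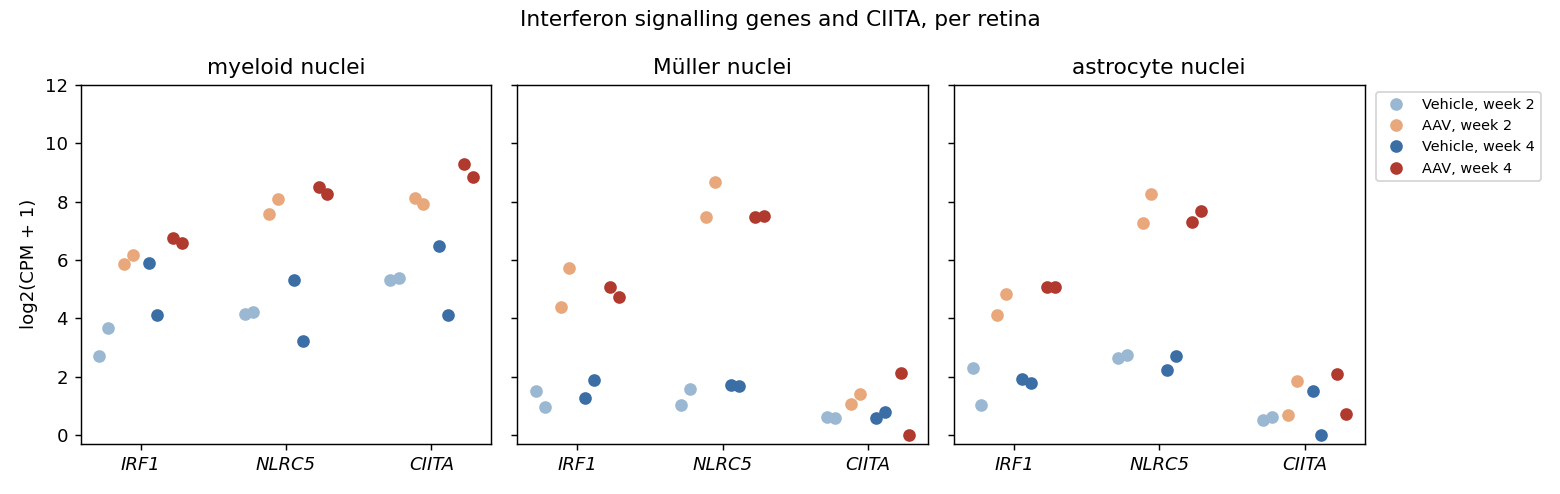
IRF1, NLRC5 and CIITA in myeloid, Müller and astrocyte nuclei, as log2(CPM + 1), 1 point per retina. NLRC5 and IRF1 separate AAV from vehicle retinas in each class at both weeks, while CIITA does so at both weeks in myeloid nuclei, where it reaches 624 CPM, but overlaps at week 4 in Müller nuclei, where it reaches 3.39 CPM, and in astrocytes. Both AAV retinas were higher for 23.8% and 30.9% of genes in myeloid nuclei at weeks 2 and 4. In Müller nuclei these shares were 37.4% and 31.6%, and none is given for astrocytes. IRF1 in myeloid nuclei did not pass the week 4 test.

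CD74 rose in the sums of retinal classes as well, where the part of free leukocyte RNA was not tested. The leukocyte gene PTPRC was higher in AAV rods and Müller nuclei too, as given below. In Müller nuclei it was at 2.92 and 1.79 CPM in AAV against 2.17 and 1.51 CPM in vehicle retinas at week 2, with overlap, and at 11.5 and 8.41 CPM against 1.71 and 1.88 CPM at week 4. It rose at week 4 by 2.49 on the log2 scale (SE 0.28, adjusted p = 0.0011, edgeR), in a class where 11.5% of genes were called higher. The effect was larger at week 4 than at week 2 by 2.28 (adjusted p = 0.049), where 2.96% of genes differed between weeks. With the left eyes alone at week 2 that difference lost its call (2.12, adjusted p = 0.068), and in the fit of 3 against 3 animals the CD74 call was lost (1.65, adjusted p = 0.10). In astrocytes it was at 15.6 and 7.11 CPM against 0.92 and 4.93 CPM at week 4 and did not pass the test (1.92, SE 0.64, adjusted p = 0.085), beside 7.82% of genes called higher. It passed without AAV replicate 2 (2.30, adjusted p = 0.020) and with no filter on low counts (1.95, adjusted p = 0.0031). The value was 1.21 without AAV replicate 1, 1.34 without vehicle replicate 1 and 3.65 without vehicle replicate 2 (adjusted p = 0.48, 0.31 and 0.12).

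CD74 in AAV retinas at week 4 was higher in rods, cones, bipolar and amacrine cells than in Müller nuclei of the same retina, and lower in horizontal and ganglion cells. The counting intervals of amacrine, horizontal and ganglion cells overlapped those of Müller nuclei. Endothelial nuclei (21 and 13) held CD74 at 63.5 and 94.0 CPM and pericytes (16 and 29) at 59.6 and 59.3 CPM, both too few to test. Vehicle retinas at week 4 held CD74 at 15.8 and 0 CPM in endothelial nuclei and at 13.1 and 25.2 CPM in pericytes. In rods CD74 was at 24.6 and 20.6 CPM in AAV against 1.28 and 1.71 CPM in vehicle retinas at week 4. There it rose by 4.04 (SE 0.21, adjusted p = 0.0013, edgeR), beside 5.87% of genes. The change of the effect between weeks was called for CD74 in rods too (3.33, adjusted p = 0.048, edgeR), as it was for 0.194% of genes. In the fit of 3 against 3 animals with week as a term, the rod call was lost (2.97, adjusted p = 0.39), as it was in cones, bipolar, amacrine and ganglion cells (1.30 to 2.65). CD74 also rose in cones (3.54, 1.4% of genes), bipolar cells (3.04, 2.12%), amacrine cells (2.38, 1.89%) and ganglion cells (2.09, 2.12%), but horizontal cells did not pass the test (2.16, adjusted p = 0.14, 2.5%) unless AAV replicate 2 was left out (2.58, adjusted p = 0.0051) or low counts were not filtered (2.16, adjusted p = 0.0016). The horizontal cell value moved with single animals, to 1.53 without AAV replicate 1, 1.42 without vehicle replicate 1 and 4.11 without vehicle replicate 2 (adjusted p = 0.36, 0.44 and 0.16). The ganglion cell call was lost without AAV replicate 1 (2.00), without vehicle replicate 1 (1.93), without vehicle replicate 2 (2.28), in nuclei passing the gate of 1 class only (1.68, adjusted p = 0.10) and in DESeq2 (2.12, adjusted p = 0.30), and was kept without AAV replicate 2 (2.17). A CD74 UMI was found in 5.14% and 4.87% of AAV rods and in 6.04% and 4.49% of AAV Müller nuclei at week 4. Thinned to 1000 UMIs these shares were 2.66% and 2.35% in rods and 1.41% and 1.65% in Müller nuclei, so the Müller share lay below that of rods.

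PTPRC and the plasma, T or NK and B cell markers were higher in AAV rods and Müller nuclei too. PTPRC, the surface phosphatase of all leukocytes, was at 6.01 and 3.76 CPM in AAV against 0.284 and 0.276 CPM in vehicle rods at week 4, and at 2.62 and 1.90 against 0.490 and 0.164 CPM in Müller nuclei. The 7 plasma cell markers summed to 54.0 to 75.2 CPM in AAV against 18.7 to 20.1 CPM in vehicle rods, and to 74.2 to 95 against 37.0 to 47.1 CPM in Müller nuclei. The 18 T or NK markers summed to 21.7 to 31.3 against 8.89 to 9.88 CPM in rods and to 19.3 to 22.5 against 14.9 to 17.7 CPM in Müller nuclei. The 9 B markers summed to 10.7 to 21.7 against 4.98 to 8.83 CPM in rods and to 7.87 to 8.85 against 4.82 to 5.32 CPM in Müller nuclei. These 9 include BANK1, which was high in AAV myeloid nuclei at week 4 as well as in B nuclei. The 14 myeloid markers summed to 25.2 to 33.9 against 22.7 to 24.8 CPM in rods and to 40.5 to 48.0 against 38.9 to 45.8 CPM in Müller nuclei, where the arms overlapped.

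The ratio of CD74 to PTPRC UMIs was higher in rods and Müller nuclei than in myeloid nuclei of the same retina at week 4, in both arms. CD74 counted 4.10 and 5.46 UMIs per PTPRC UMI in AAV rods and 4.38 and 4.43 in AAV Müller nuclei, against 0.869 and 0.823 over the leukocyte classes and 1.53 and 1.46 in myeloid nuclei. The dendritic class of the same retinas counted 5.17 and 3.18, from 6 and 11 PTPRC UMIs. In vehicle retinas at week 4, from 2 to 8 PTPRC UMIs, it counted 4.50 and 6.20 in rods and 3.50 and 11.5 in Müller nuclei, against 0.303 and 0.400 in myeloid nuclei from 33 and 20. In nuclei without a UMI of any myeloid, T or NK, B or plasma marker, an alternative added after the data were seen, the week 4 CD74 difference was 3.95 in rods and 2.77 in Müller nuclei and both still passed the test. A droplet can hold free RNA without a UMI of these markers, so this setting does not remove free RNA. Neither PTPRC nor the dendritic markers were among those it used. The ratio of CD74 to PTPRC in free RNA itself was not measured. The part that free RNA of leukocytes had in the CD74 of retinal classes was hence not tested.

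**Figure D4:**
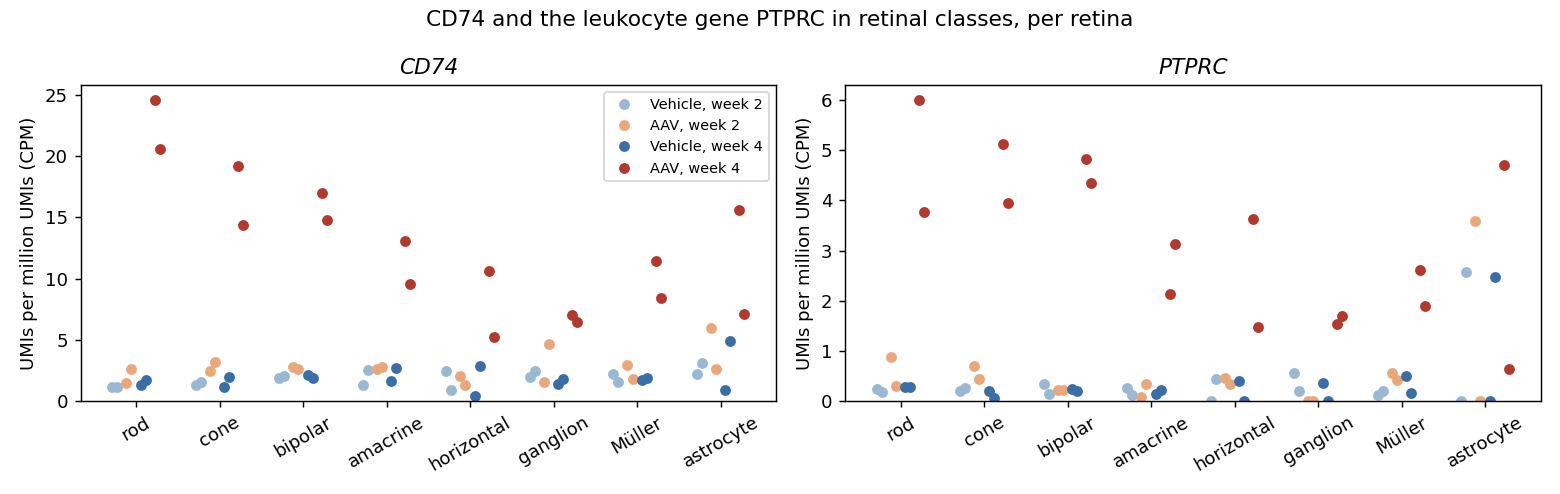
CD74 (left) and PTPRC (right) in 8 retinal classes, in CPM on linear axes from 0 with different scales, 1 point per retina. In rods both genes stand highest in AAV retinas at week 4, CD74 at 24.6 and 20.6 CPM and PTPRC at 6.01 and 3.76 CPM, while in astrocytes PTPRC overlaps between arms.

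CIITA was low in neurons, and some of its calls were lost with 1 animal fewer. At week 4 it rose in cones (2.99, SE 0.53, adjusted p = 0.043) and bipolar cells (2.54, SE 0.36, adjusted p = 0.014) and did not pass the test in rods (2.03, SE 0.57, adjusted p = 0.069) or amacrine cells (1.38, SE 0.40, adjusted p = 0.13), all by edgeR. The cone call was lost without vehicle replicate 1 (2.94, adjusted p = 0.12) and without vehicle replicate 2 (3.05, adjusted p = 0.073), and the bipolar call without vehicle replicate 1 (2.19, adjusted p = 0.053). Without AAV replicate 1 the cone difference was 2.30 and kept its call (adjusted p = 0.041). In the fit of 3 against 3 animals both were lost (2.29 in cones and 1.53 in bipolar cells, adjusted p = 0.20 and 0.45), as they were in nuclei passing the gate of 1 class only (1.91 and 1.49, adjusted p = 0.098 and 0.13), where the amacrine difference was 0.22. Rods passed without AAV replicate 2 (2.53, adjusted p = 0.0073), in DESeq2 (2.00, adjusted p = 0.018), with no filter on low counts (2.05, adjusted p = 0.0092) and with all barcodes (2.11, adjusted p = 0.046). The rod difference was 1.31 without AAV replicate 1, 1.52 without vehicle replicate 1, 2.63 without vehicle replicate 2 and 1.32 in the fit of 3 against 3 animals, with no call in any of these fits (adjusted p = 0.11, 0.25, 0.12 and 0.53). Amacrine cells passed with no filter (1.37, adjusted p = 0.027). The level in AAV retinas was 4.15 and 1.72 CPM in cones and 4.78 and 3.27 CPM in bipolar cells. In bipolar nuclei without a leukocyte marker UMI the difference was 1.18 and lost its call (adjusted p = 0.27), and in such rods it was 0.90 (adjusted p = 0.24).

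CTSS was detected in neurons of both arms. In rods it was at 18.8 and 17.9 CPM in AAV against 18.8 and 20.1 CPM in vehicle retinas at week 4, a difference of 0.02 (SE 0.13). Across neurons and weeks it stood between 15.1 and 28.1 CPM, above Müller nuclei at 4.33 to 13.3 CPM. At week 4 Müller nuclei held 10.1 and 13.3 CPM against 7.84 and 9.16 CPM (0.42, SE 0.23, adjusted p = 0.23) and astrocytes 11.2 and 16.8 CPM against 9.24 and 8.01 CPM (0.74, SE 0.39, adjusted p = 0.24). No retinal class was called for CTSS by edgeR, where 1 of 8 had an unadjusted p under 0.05, or by DESeq2, where 0 of 8 did.

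RFX5 was called in 0 of the 9 classes tested, by edgeR with the settings as reported or by DESeq2. The unadjusted p was under 0.05 in 4 of them by edgeR, in Müller, bipolar, horizontal and ganglion nuclei, and in 2 by DESeq2. In Müller nuclei it was at 10.7 and 15.0 CPM in AAV against 7.71 and 7.01 CPM in vehicle retinas at week 2, a ratio of 1.80 (1.54 to 2.12), in a class where 37.4% of genes had both AAV retinas higher. At week 4 it was at 9.73 and 14.4 CPM against 7.43 and 6.22 CPM, without overlap, an order that 31.6% of genes had, and missed the threshold (0.77, SE 0.26, adjusted p = 0.067, edgeR), which it passed without AAV replicate 1 (1.11, adjusted p = 0.028). In bipolar nuclei the difference was 0.70 (adjusted p = 0.092, edgeR), and it passed in nuclei without a leukocyte marker UMI (0.85, adjusted p = 0.043). Its highest neuronal level was in amacrine cells, at 15.5 to 24.2 CPM over the 8 retinas.

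**Figure D5:**
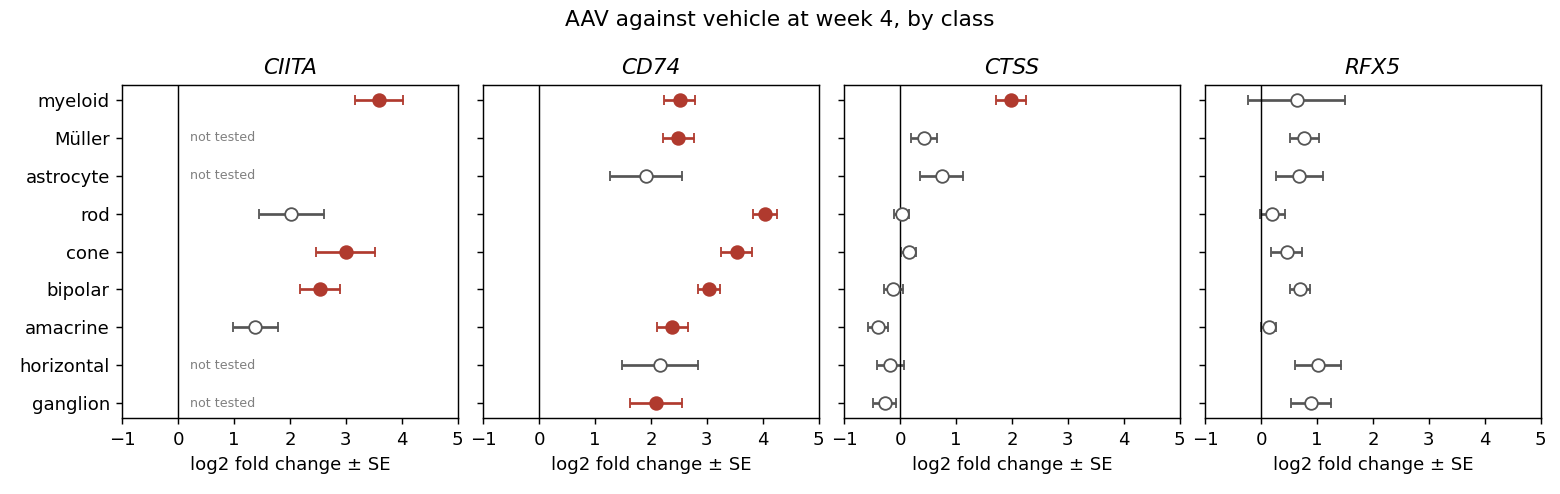
Week 4 log2 fold change of AAV against vehicle with its standard error, for each member (panels) and class (rows), from edgeR on sums of 2 animals per arm. Filled red points passed the adjusted threshold; CD74 did so in 7 of 9 classes fitted, CIITA in 3 of 5, CTSS in myeloid nuclei and RFX5 in none.

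In myeloid nuclei 2 of the 5 class II chains tested rose, beside 4.32% of all genes. All 5 chains tested in rods rose too, beside 5.87% of genes, as did 3 of 4 in Müller nuclei, beside 11.5%. In myeloid nuclei HLA-DRA, the alpha chain of the DR molecule, was at 271 and 252 CPM in AAV against 9.78 and 16.5 CPM in vehicle retinas at week 4, a ratio of 19.6 (6.69 to 95) over 3 vehicle UMIs. SLA-DQB1, the DQ beta chain, was at 209 and 212 CPM against 29.3 and 16.5 CPM, and both of these chains were called. SLA-DMB, a subunit of the DM peptide editor, was at 94.1 and 85.9 CPM against 48.9 and 24.7 CPM and SLA-DMA, its partner, at 24.2 and 21.0 CPM against 29.3 and 8.24 CPM, and neither passed the test. In Müller nuclei HLA-DRA was at 3.50 and 4.34 CPM against 0.08 and 0.16 CPM and SLA-DQB1 at 3.28 and 2.71 CPM against 0.08 and 0.33 CPM, while AAV rods held them at 8.19 and 5.81 CPM and at 7.20 and 6.50 CPM. SLA-DMB was at 1.74 and 1.21 CPM in AAV against 0.604 and 0.497 CPM in vehicle rods, and SLA-DMA at 1.09 and 0.540 against 0.0711 and 0 CPM.

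HLA-DOB, a subunit of the DO molecule that restrains DM, had another pattern. In AAV retinas at week 4 it was at 6.12 and 5.16 CPM in Müller nuclei, 6.16 and 7.11 CPM in astrocytes and 6.39 and 5.50 CPM in amacrine cells, against 4.89 and 2.69 CPM in myeloid nuclei and 2.04 and 2.00 CPM in rods. B nuclei held 77.8 and 35.3 CPM. In Müller nuclei it counted 75 UMIs in AAV against 1 in vehicle retinas, a ratio of 143 (24.9 to 5723), and was called.

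Of 43 pathway genes listed, 40 were tested in myeloid nuclei, of which 12 rose and 1 fell (4.32% and 2.8% of all genes tested), with a median log2 difference of 1.08 against 0.21 over all genes, or 0.93 with the 3 genes at 0 in both vehicle retinas set to their bound. The members are not among the 43. CTSH, CTSB, CTSZ and LGMN, all lysosomal proteases, were 4 of the risers. CTSH, an aminopeptidase, was at 275 and 210 CPM in AAV and at 0 in both vehicle retinas at week 4, at least 18.3-fold higher against a floor of 3 counts over the group. CTSB, a lysosomal cysteine protease, was at 130 and 153 CPM against 1 vehicle UMI, a ratio of 31.3 (5.61 to 1239), and CTSZ rose by 2.45 (SE 0.36). CD44, which pairs with CD74 as a surface receptor, rose by 3.16 (SE 0.32). CST3, the cystatin that inhibits cathepsins, fell by 2.41 (SE 0.23). Of the 5 listed partners of RFX5 on class II promoters (RFXANK, NFYA, NFYB, NFYC and CREB1), 0 were called in myeloid, Müller or astrocyte nuclei by edgeR or DESeq2, and of these 15 fits 1 had an unadjusted p under 0.05 by edgeR and 0 by DESeq2.

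In Müller nuclei 15 of 39 pathway genes tested rose and 2 fell (CST3 and MARCHF1, a ligase that removes class II from the surface), beside 11.5% and 11.8% of all genes, with a median of 0.55 against -0.01 over all genes. IFI30, the lysosomal thiol reductase, counted 27 against 6 UMIs (ratio 8.58, 3.47 to 25.4) and CD86, a costimulatory ligand, 19 against 4 (ratio 9.06, 3.01 to 36.6). In astrocytes 6 of 28 rose and 1 fell, beside 7.82% and 6.98% of all genes, with a median of 0.33 against 0.00. Beside IRF1 and NLRC5, those that rose included CTSH (1.57, SE 0.29), JAK2, an interferon receptor kinase (0.91, SE 0.15), and CD44 (0.75, SE 0.19), with CST3 falling by 1.15. In rods 13 of 40 rose, beside 5.87% of all genes, with a median of 0.36 against 0.02.

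Likeness of pattern was measured as Pearson's r of log2(CPM + 1) over 91 sums of a class in a retina, among 13249 genes. The points share libraries and depth, so r is a description with no p. CD74 was most like HLA-DRA (0.96) and SLA-DQB1 (0.93), with CIITA among its first 5 (0.90). CIITA was most like CMAH (0.92), CLEC2B, FLI1, STX11 and SLA-DMB (0.90). CTSS was most like RNF125 (0.83), CD80, DAPP1, DOCK2 and IL10RA, and RFX5 was most like CYLD (0.73), TRANK1, DYNLT1, TAP2 and TRERF1. Among the members themselves, CIITA and CD74 were the most alike and CTSS and RFX5 the least (0.39).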

How the data were processed

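The deposited files hold raw UMI counts per gene and nucleus, made by the authors with Cell Ranger 8.0.0 on Sscrofa11.1 with the vector's reporter added, for several lanes per retina (filtered barcodes). Of 35683 genes, 18050 have an identifier only and could not be named. Lanes of 1 retina shared 23 to 65 barcodes and lanes of different retinas 18 to 62.

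Nuclei with a posterior above 0.75 of the damaged part of a mitochondrial mixture, fitted per retina, were removed. Nuclei whose mitochondrial percent lay at or below the line fitted to the undamaged part were kept. Doublets were not removed. A nucleus was classed by the likelihood of its marker UMIs, with at least 2 distinct own markers and a lead of 10 over the next class, and none of the members served as a marker. The members and lists were chosen with earlier results of these data known, and the scoring rule of the gate was set after marker levels were seen.

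Counts were summed per retina and class. Week 4 sums were tested over all genes with edgeR 4.0.16 in R 4.3.3 (quasi-likelihood test, trimmed mean of M values, filterByExpr, Benjamini-Hochberg threshold 0.05) in classes of at least 20 nuclei per retina. Week 2 has 1 animal per arm, hence no test, and the change between weeks was tested as an interaction over 6 animals, week 2 eyes summed. With 2 animals per arm p-values measure only the spread between these animals. Intervals (95%) and floors of 3 counts cover counting error only. CPM is UMIs per 1000000 UMIs of the class in that retina. Levels of different genes are not corrected for length and were not compared within a class, and the ratio of CD74 to PTPRC was compared between classes only. DESeq2 1.42.0, other scalings, filters, gates and thinning (1000 or 500 UMIs, seed 1) were alternatives. On simulated counts, 88.5% of 200 genes changed 4-fold among 12161 in the myeloid comparison were recovered, with 5.85% false calls. In Müller nuclei 86.5% of 200 among 17807 were recovered, with 11.7% false calls. The changed genes were drawn only from those above a minimum expected count in the smallest sum. These shares hence do not cover genes of few UMIs, such as RFX5 in myeloid nuclei.

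Genes were named by rule: the members, the class II chains, up to 8 pathway genes per class among myeloid, Müller and astrocyte nuclei with the largest difference past the threshold and no overlap, and the 5 genes most like each member over sums of at least 50 nuclei, among genes of at least 500 UMIs. IRF1 in myeloid nuclei and the genes given by count only were added after their values were seen. Some genes that the rule names are not reported here. Sequences and gene positions were read from the RefSeq genome of the same build, and motifs were searched as letters on both strands.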

Additional observations from a re-analysis of the deposited data

Results flagged for a closer look

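The week 4 difference exceeded the week 2 difference by the interaction test in 4 cases among the members, classes and all nuclei together. CD74 in rod nuclei differed between weeks by 3.33 on the log2 scale (adjusted p = 0.048, edgeR) and by 3.89 with the left eyes alone at week 2. CD74 in Müller nuclei differed by 2.28 (adjusted p = 0.049, edgeR). Over all nuclei together CD74 differed by 3.27 (adjusted p = 0.035, edgeR) and CIITA by 3.59 (adjusted p = 0.045, edgeR), and with the left eyes alone CIITA lost its call (3.61, adjusted p = 0.059). The week 2 arms hold 1 animal each, so the spread of these tests comes from the week 4 animals.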

How the results depend on the processing

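No paired analysis was possible because replicate numbers name different animals in each arm and, at week 2, the eyes of 1 animal per arm. Each arm holds 1 animal at week 2 and 2 at week 4, and batch follows group. Vehicle myeloid sums at week 4 hold 67 nuclei per retina, which limits depth for genes with few UMIs there, such as RFX5. In myeloid nuclei CIITA, CD74 and CTSS kept their calls in 11 of 11 alternatives (CIITA 3.15 to 3.73, CD74 1.76 to 2.63, CTSS 1.50 to 2.11). Without 1 animal they ranged from 2.82 to 5.22, 2.29 to 2.85 and 1.76 to 2.45. A lone animal in an arm is assumed to vary like the other group. Without 1 animal CD74 ranged from 2.25 to 2.67 in Müller nuclei and from 1.21 to 3.65 in astrocytes, CTSS from 0.25 to 0.67 and 0.46 to 1.06, and RFX5 from 0.51 to 1.11 and 0.37 to 1.04.

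RFX5 in myeloid nuclei turned to -0.13 with thinning and ranged from -0.43 to 9.18 without 1 animal, in the 2 such fits where it passed the filter. CTSS in rods, at 0.02, turned to -0.08 with library size only, -0.01 to 0.07 without 1 animal (-0.01 without vehicle replicate 1), -0.03 in the 3 against 3 fit, -0.0024 with nuclei passing 1 gate, -0.01 with thinning and -0.02 without leukocyte marker nuclei. CTSS in bipolar cells (-0.13) turned to 0.09 without AAV replicate 1 (-0.37 to 0.09 without 1 animal). CD74 in Müller nuclei lost its call in the 3 against 3 fit (1.65) and its interaction with left eyes only (2.12), where RFX5 in Müller nuclei turned from -0.04 to 0.35. CD74 in astrocytes passed with no filter (1.95). The cause was not tested.

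At week 2 the left eyes alone gave 0.43 for CD74 in Müller nuclei (both eyes 0.26) and -0.27 for RFX5 in myeloid nuclei (0.16). The right eyes alone gave -0.24 for CD74 (0.93), 0.83 for CTSS (-0.06) and 0.21 for RFX5 (0.54) in astrocytes, 0.19 for CTSS in Müller nuclei (-0.19) and 1.29 for RFX5 in myeloid nuclei.

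The thinned difference in the share of myeloid nuclei with a CIITA UMI, 15.9 and 34.3 percentage points at weeks 2 and 4, became 34.9 and 61.3 without thinning, 7.61 and 22.5 at 500 UMIs and 20.0 and 40.3 for at least 2 UMIs. For CD74 12.3 and 23.8 became 24.5 and 50.4 without thinning, and the week 4 value 12.4 at 500 UMIs and 34.5 for at least 2 UMIs. For CTSS 6.70 and 19.4 became 15.4 and 49.4 without thinning, -0.0943 at week 2 at 500 UMIs and 34.3 at week 4 for at least 2 UMIs. For RFX5 -1.93 and -0.766 became 1.68 and 5.44 without thinning, 0.413 and 0.933 at 500 UMIs and 0.581 at week 2 for at least 2 UMIs.

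Counts of genes called higher at week 4 varied over the alternatives from 361 to 979 in myeloid nuclei (525 as reported), 606 to 2106 in Müller nuclei (2046), 212 to 1412 in astrocytes (924), 91 to 1982 in rods (1254), 116 to 378 in cones (258), 152 to 601 in bipolar (431), 216 to 988 in amacrine (373), 107 to 783 in horizontal (324) and 24 to 604 in ganglion cells (295), and 236 to 2486 over all nuclei (1792). Without 1 animal the number of genes tested in myeloid nuclei ranged from 3793 to 14609, against 12161 with all animals. Such fits leave 1 animal in an arm, so their counts of calls are not set beside these. With library size only the median over all genes shifted by -0.14 in myeloid nuclei and -0.11 in rods, and the share of calls that were higher moved from 41.6% to 31.2% in rods and from 74.3% to 57.1% in ganglion cells. Over the members outside myeloid, Müller and astrocyte nuclei, 383 values kept direction and call, 24 lost the call, 8 gained it and 7 changed sign.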
